A study of Mus musculus with 5 samples.

Results

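The comparison described here set mouse epiblast stem cells (EpiSCs) treated with bone morphogenetic protein 4 (BMP-4) at 10 ng/ml for 24 h against untreated EpiSCs, with 1 library in each group. Its members were the genes that averaged 1 FPKM or more over these libraries (mapped fragments scaled to transcript length and to the size of the library) and a status of OK in both, without small RNA genes, which left 10641 of the 23951 genes in the table. Values were compared as the difference of log2(FPKM + 1), 24 h minus untreated. A gene is called higher or lower where that difference reached 2-fold, which understates the fold of low genes. The words within 2-fold refer to this scale throughout, so the printed FPKM of low genes can lie further apart.

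The EpiSCs, named ESD-EpiSCs in the labels, were derived from embryonic stem cells (ESCs) of the mouse line E14, and neither a transgene nor a mutation is named for them. All EpiSC groups, the untreated one included, were kept on plates coated with fetal bovine serum in N2B27, a serum-free neural basal mix, with FGF2 at 12 ng/ml and Activin A at 20 ng/ml, so BMP-4 was added to cells already under both factors. Another EpiSC library, treated with BMP-4 at 10 ng/ml for 1.5 h, is given beside the other two throughout. Of the 5 libraries of the study, the remaining 2 came from E14 ESCs, kept in LIF with serum or in LIF with BMP-4 at 10 ng/ml, and are used only for levels. RNA came from whole cultures, so more cells that express a gene and more RNA per cell cannot be told apart in any value below.

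Each deposited FPKM has a 95% confidence interval made by the authors' software for that library alone. With 1 library a group, these intervals are the only error given, they do not measure the spread between cultures, and no difference has a replicate check or a p-value. The libraries held about 9760000 (untreated), 10900000 (1.5 h) and 13300000 (24 h) reads, estimated from the steps of low values. The identity of the cells was checked by markers: the pluripotency factor Pou5f1 stood at 1264 FPKM in untreated cells, 1242 FPKM after 1.5 h and 1208 FPKM after 24 h, the primed epiblast ligand gene Fgf5 at 133 FPKM in untreated cells, 96.2 FPKM after 1.5 h and 60.2 FPKM after 24 h, and Zfp42, a marker of the naive state, at 0.531 FPKM in untreated cells, 0.686 FPKM after 1.5 h and 0.391 FPKM after 24 h. The 21 naive pluripotency genes summed to 130 FPKM in untreated EpiSCs and 137 FPKM after 24 h, against 5244 FPKM in ESCs in LIF and serum. Pluripotency genes of the primed state were thus present and naive ones low in all 3 EpiSC libraries.

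BMP ligands bind pairs of type I and type II receptor kinases, which phosphorylate Smad1, Smad5 and Smad9 (Smad8), and these enter the nucleus with Smad4 and switch on targets such as the Id genes, whose products block basic helix-loop-helix factors. In the mouse embryo the primed epiblast is exposed to BMP4 from the neighbouring extraembryonic ectoderm. BMP signalling there supports the posterior primitive streak, from which extraembryonic and lateral mesoderm arise, and the precursors of germ cells, whereas Nodal or Activin signalling at high levels supports the anterior streak, the organizer and definitive endoderm, whose cells secrete BMP, Wnt and Nodal inhibitors. EpiSCs are the cultured counterpart of this primed epiblast.

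To show what stands before genes with large differences, the 250 bases upstream of the annotated start are printed for 6 genes that were higher after 24 h, of the BMP target and streak groups, and for 2 that were lower, of the organizer group. They are RefSeq sequences of the build GRCm38.p6, 5′ to 3′ on the strand of the gene. Capitals mark matches to 3 sequence elements searched on both strands. GGCGCC is a GC-rich element bound by Smad1 and Smad5 and reads alike on both strands. A variant of it is GGAGCC, which reads GGCTCC from the opposite side. The third, CTTTGAT or its reverse complement, is bound by Tcf and Lef factors of the Wnt pathway. The windows are chr12:25096093-25096342 (minus strand) for Id2, chr4:136143572-136143821 (plus) for Id3, chr13:53472781-53473030 (minus) for Msx2, chr17:8434173-8434422 (plus) for T, chr7:79793591-79793840 (minus) for Mesp1, chr2:70474673-70474922 (plus) for Sp5, chr4:82885152-82885401 (minus) for Cer1 and chr12:104473237-104473486 (minus) for Gsc.
Id2: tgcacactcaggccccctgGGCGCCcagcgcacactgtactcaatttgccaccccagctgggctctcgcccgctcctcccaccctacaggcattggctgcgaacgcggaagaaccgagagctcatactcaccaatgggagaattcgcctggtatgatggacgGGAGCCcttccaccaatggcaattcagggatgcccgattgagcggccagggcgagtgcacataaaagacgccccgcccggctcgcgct
Id3: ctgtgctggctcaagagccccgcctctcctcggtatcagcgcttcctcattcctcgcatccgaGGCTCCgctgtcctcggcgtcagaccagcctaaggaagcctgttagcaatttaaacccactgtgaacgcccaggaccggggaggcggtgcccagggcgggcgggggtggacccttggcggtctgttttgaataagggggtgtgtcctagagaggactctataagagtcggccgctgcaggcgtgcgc
Msx2: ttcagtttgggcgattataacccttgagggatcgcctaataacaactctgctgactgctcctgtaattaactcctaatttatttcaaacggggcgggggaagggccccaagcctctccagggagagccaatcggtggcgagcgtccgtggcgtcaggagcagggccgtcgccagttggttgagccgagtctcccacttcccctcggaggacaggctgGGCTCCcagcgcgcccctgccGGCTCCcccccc
T: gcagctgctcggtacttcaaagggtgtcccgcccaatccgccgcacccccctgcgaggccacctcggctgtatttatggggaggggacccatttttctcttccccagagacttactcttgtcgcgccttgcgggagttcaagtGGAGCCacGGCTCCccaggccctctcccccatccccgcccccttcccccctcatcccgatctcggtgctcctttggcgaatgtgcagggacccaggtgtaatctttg
Mesp1: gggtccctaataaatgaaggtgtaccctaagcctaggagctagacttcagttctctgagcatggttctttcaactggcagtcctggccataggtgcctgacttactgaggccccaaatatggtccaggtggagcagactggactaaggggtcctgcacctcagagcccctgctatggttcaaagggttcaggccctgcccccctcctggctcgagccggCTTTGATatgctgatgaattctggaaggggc
Sp5: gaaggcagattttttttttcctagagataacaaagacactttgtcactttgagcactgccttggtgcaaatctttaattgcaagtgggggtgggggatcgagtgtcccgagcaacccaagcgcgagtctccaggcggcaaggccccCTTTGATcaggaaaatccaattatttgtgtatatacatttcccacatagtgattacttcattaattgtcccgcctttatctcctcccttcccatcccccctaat
Cer1: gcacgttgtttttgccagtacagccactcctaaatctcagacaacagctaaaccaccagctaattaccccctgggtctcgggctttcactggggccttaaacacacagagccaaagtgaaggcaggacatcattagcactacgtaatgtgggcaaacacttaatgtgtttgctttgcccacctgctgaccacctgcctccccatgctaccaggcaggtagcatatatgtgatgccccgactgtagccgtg
Gsc: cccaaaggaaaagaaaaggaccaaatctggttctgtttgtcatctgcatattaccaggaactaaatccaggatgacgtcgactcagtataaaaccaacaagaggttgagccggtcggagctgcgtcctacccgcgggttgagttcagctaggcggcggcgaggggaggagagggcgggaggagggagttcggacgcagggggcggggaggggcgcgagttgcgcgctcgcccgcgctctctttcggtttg
Id2, Id3, Msx2 and T held 1 or 2 GC-rich matches each, Mesp1 and Sp5 held 1 Tcf/Lef match, and Cer1 and Gsc held no match to these letters in this window. Such matches are common. GGCGCC was found in 1701 of 8117 compared genes with a promoter in the table, in 8 of 41 higher genes and in 8 of 29 lower genes. GGAGCC was found in 40.9% of compared genes, 20 of 41 higher and 14 of 29 lower, and the Tcf/Lef letters in 2.60%, with 5 of 41 higher and 1 of 29 lower. A match is a description of the letters and not a measured binding site.

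After 24 h of BMP-4, 61 genes were higher (0.573% of those compared) and 42 were lower (0.395%), and the other 10538 lay within 2-fold. The higher genes included BMP targets of the Id and Msx families, the mesoderm factor T (Brachyury), the posterior homeobox genes Cdx2 and Evx1, and Alox15, a lipoxygenase. The lower genes included Cer1, Lefty1, Gsc, Foxa2, Lhx1 and Otx2 of the anterior streak and organizer group. The deposited intervals of the 2 libraries were apart for 6 of the higher genes (0.0564%), namely Id1, Id2, Id3, T, Alox15 and Pisd-ps1, and for 3 of the lower ones (0.0282%), Cer1, Lefty1 and Gsc. All other calls had overlapping intervals. The median fold was 2.33 among higher and 2.46 among lower genes, the largest with the pseudocount of 1 FPKM was 13.2 (Id1) and 15.6 (Cer1), and the median difference over all genes was -0.00. That rank depends on the pseudocount: with 0.1 FPKM the differences of Mesp1 (6.21) and Btg3 (-6.27) exceeded those of Id1 (3.81) and Cer1 (-4.64). Among higher genes 21 of 61 had less than 1 FPKM in untreated cells, and 14 of 42 lower genes had less than 1 FPKM after 24 h, so these passed the filter through the library in which they were high.

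**Figure D1:**
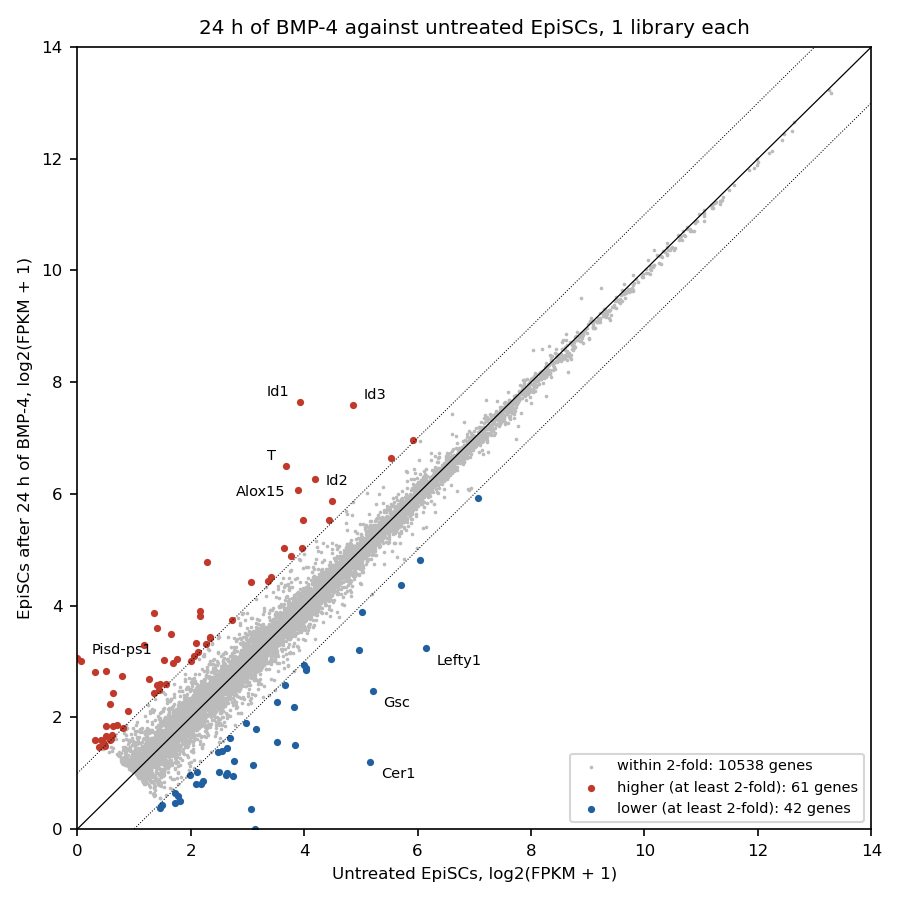
Level of each of the 10641 genes in untreated EpiSCs (x axis) and after 24 h of BMP-4 (y axis), both as log2(FPKM + 1), 1 point a gene. The solid line is equality, the dotted lines are 2-fold, and the 9 genes whose deposited intervals were apart are named; most genes lie along the diagonal, and 61 lie above and 42 below the dotted band.

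The spread of differences narrowed with the level. At a mean of 1 to 5 FPKM, 95% of the differences lay between -0.65 and 0.68, and 30 genes were higher and 24 lower of 3177 (1.70%). At 20 to 100 FPKM, they lay between -0.36 and 0.34, and 11 genes were higher and 6 lower of 2815 (0.604%). At 100 FPKM and more, only Id1 and Id3 were called among 880 genes (0.227%). The lowest class thus held 30 of the 61 higher and 24 of the 42 lower genes, and in it the upper bound of the deposited interval lay at a median of 112% above the value in untreated cells. The 1.5 h library gave fewer calls against the same untreated library, 14 higher (0.132%) and 8 lower (0.0753%) of 10618 genes, and 24 h against 1.5 h gave 55 higher (0.517%) and 32 lower (0.301%) of 10641. Intervals were apart for 3 higher (0.0283%) and 0 lower genes at 1.5 h, and for 4 higher (0.0376%) and 2 lower (0.0188%) genes between 1.5 h and 24 h. The first of these comparisons shares the untreated library with the one described here, and the second shares the 24 h library, so they are not independent of it.

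Genes of the BMP pathway itself differed by role. Receptors and Smads lay within 2-fold: of 10 genes 8 were compared, 0 were higher or lower, and the median was 0.04. The type I receptor gene Bmpr1a stood at 20.7 FPKM in untreated cells, 20.3 FPKM after 1.5 h and 21.7 FPKM after 24 h. The type I receptor gene Acvr1 stood at 5.97, 8.39 and 7.34 FPKM and the type II receptor gene Bmpr2 at 2.09, 2.42 and 2.29 FPKM in the same order. The receptor-activated Smads were similarly close across libraries, Smad1 at 10.4, 10.8 and 11.8 FPKM and Smad5 at 8.51, 8.8 and 7.69 FPKM, and the common partner Smad4 was at 33, 29.9 and 28.9 FPKM. Components that carry the signal were therefore present before and after treatment. Of 9 genes for BMP ligands only Bmp7 was compared, at 7.68, 7.53 and 5.33 FPKM (difference -0.46). Bmp4 itself stood at 0.263, 0.283 and 0.581 FPKM and Bmp2 at 0.783, 0.401 and 0.123 FPKM, below the filter in every EpiSC library.

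Of the 17 BMP target genes, 12 were compared, 7 were higher (against 0.573% of all genes compared) and 0 lower, and all 12 differences were above 0 (median 1.12, against -0.00 over all genes). Without the filter on the mean, 8 of 17 were higher (median 0.70), against 67 of 22751 genes (0.294%), the eighth being Tbx3 at 0.0636, 0.294 and 1.86 FPKM. The list was drawn up with earlier results of these data known, so its direction is no independent evidence. Id1 (chr2:152561987-152563146, coordinates here and below from the deposited table, build mm9) stood at 14.1 FPKM in untreated cells, 184 FPKM after 1.5 h and 199 FPKM after 24 h. Its intervals were 0.164 to 28.1 FPKM untreated and 97 to 301 FPKM at 24 h, the difference was 3.73, and both treated libraries were high, with most of the difference already there at 1.5 h. Id3 (chr4:135699737-135701307) stood at 28 FPKM in untreated cells, 151 FPKM after 1.5 h and 192 FPKM after 24 h, a difference of 2.73. Id2 (chr12:25778664-25780957) stood at 17.3 FPKM in untreated cells, 64 FPKM after 1.5 h and 76 FPKM after 24 h, a difference of 2.07. The products of all 3 genes hold back lineage factors of the basic helix-loop-helix class, and for each the untreated interval lay below the 24 h interval (5.27 to 50.8 and 93.2 to 291 FPKM for Id3, 3.51 to 31.1 and 32.5 to 119.6 FPKM for Id2).

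The homeobox genes Msx1 and Msx2, which act downstream of BMP in many tissues, had a different course. Msx2 stood at 1.25 FPKM in untreated cells, 3.79 FPKM after 1.5 h and 8.88 FPKM after 24 h (difference 2.13), and Msx1 at 1.64, 3.86 and 11.2 FPKM (2.21). The 1.5 h value lay between the other two for both, and the intervals overlapped. Msx1 shares its span with the antisense transcript Msx1os, which stood at 3.89, 9.05 and 26.6 FPKM, and the sources used here do not say how the counting treated strand, so their reads may not be separated. Smad6, an inhibitory Smad that feeds back on the pathway, stood at 0.85, 1.89 and 3.35 FPKM (1.23), and the zinc finger gene Gata2 at 0.495, 1.52 and 2 FPKM (1.01). Other feedback genes lay within 2-fold: Smad7 at 20.2, 25.3 and 22 FPKM, the pseudoreceptor gene Bambi at 6.57, 6.44 and 7.92 FPKM and the Notch and BMP target Hey1 at 3.25, 5.43 and 4.57 FPKM. Of the inhibitory feedback genes Smad6 thus lay past 2-fold and Smad7 and Bambi did not. The Smad6 call rests on low values with overlapping intervals, 0 to 1.99 FPKM untreated and 0.0734 to 6.63 FPKM at 24 h. The T-box gene Tbx3 and the zinc finger gene Gata3 (0.156, 0.503 and 0.873 FPKM) had their highest value at 24 h but did not pass the filter.

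Among 14 genes for secreted BMP antagonists and modulators, 9 were compared, 1 was higher and 2 were lower (median 0.10). Bmper, which encodes a BMP-binding modulator, was higher at 0.235, 0.701 and 2.02 FPKM. Chrd, which encodes the organizer's BMP antagonist chordin, was lower at 3.64, 2.46 and 0.811 FPKM (-1.36). Cer1, whose product binds BMP and Nodal, is given with the organizer genes below. Fst (follistatin, an antagonist of Activin) lay just under 2-fold at 28.2, 21.3 and 57.2 FPKM (1.00). Twsg1, a modulator of chordin, stood at 21.3, 20.1 and 19.8 FPKM.

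Genes of the posterior streak and early mesoderm were the other group with large positive differences. Of 26 genes, 14 were compared, 6 were higher (T, Mesp1, Cdx2, Evx1, Wnt5b and Sp5) and 0 lower, with a median of 0.82, against 0.573% higher among all genes compared. Without the filter 7 of 26 were higher (median 0.52), against 0.294% of all genes, the seventh being Sp8 at 0.132, 0.374 and 1.57 FPKM. This list too was drawn up with earlier results of these data known, so its direction is no independent evidence. T (chr17:8627288-8635361), the T-box factor that drives mesoderm formation, stood at 11.9 FPKM in untreated cells, 10.6 FPKM after 1.5 h and 89.2 FPKM after 24 h, with intervals of 2.78 to 20.9 FPKM untreated and 44.4 to 134 FPKM at 24 h and a difference of 2.81. Unlike the Id genes, T at 1.5 h lay beside its untreated value, and only the 24 h library was high. Cdx2 (chr5:148112476-148118825), a caudal homeobox factor of posterior identity, stood at 1.55 FPKM in untreated cells, 1.48 FPKM after 1.5 h and 13.7 FPKM after 24 h (2.52), with intervals of 0 to 3.67 and 3.62 to 23.7 FPKM that nearly met. Evx1 (chr6:52258383-52268372), a homeobox gene of the proximal posterior streak, stood at 0.246 FPKM in untreated cells, 0.945 FPKM after 1.5 h and 6.01 FPKM after 24 h (2.49). Its overlapping partner 5730457N03Rik had a similar course, and their reads may not be separated. Mesp1 (chr7:86937127-86938476), a factor of the first mesoderm and of the heart field, was listed at 0 in untreated cells, stood at 0.291 FPKM after 1.5 h and at 7.32 FPKM (0 to 15.6) after 24 h. Both Mesp1 and Evx1 passed the filter through the 24 h library alone.

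Within 2-fold, the streak ligand genes Wnt3 and Fgf8 stood at 12.6, 18 and 23.9 FPKM and at 61.2, 61.4 and 82 FPKM, and Wnt8a at 10.6, 8.66 and 18.7 FPKM (0.76). Factors of the whole streak differed little: Eomes, a T-box factor needed for streak exit and endoderm, stood at 23.9, 19.7 and 28.7 FPKM (0.25), and the homeobox gene Mixl1 at 2.8, 1.62 and 3.52 FPKM. T and Eomes, both streak T-box genes, were thus 2.81 and 0.25 apart on the log2 scale from untreated to 24 h.

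Genes of the anterior streak, organizer and definitive endoderm lay on the other side. Of 25 genes, 20 were compared, 10 were lower (against 0.395% of all genes compared) and 0 higher, 17 differences were below 0, and the median was -1.04. Without the filter 10 of 25 were lower (median -0.72), against 48 of 22751 genes (0.211%), and the summed level of the 25 genes was 290 FPKM untreated, 212 FPKM after 1.5 h and 93.1 FPKM after 24 h. The anterior list was likewise drawn up with earlier results of these data known, so its direction is no independent evidence. Cer1 (chr4:82527655-82531055), which encodes a secreted inhibitor of BMP and Nodal, stood at 35 FPKM in untreated cells, 29.1 FPKM after 1.5 h and 1.31 FPKM after 24 h. The intervals were 13.2 to 56.8 FPKM untreated and 0 to 3.1 FPKM at 24 h, and the difference was -3.96. Lefty1 (chr1:182865170-182868532), which encodes a Nodal inhibitor, stood at 69.9 FPKM in untreated cells, 35.7 FPKM after 1.5 h and 8.42 FPKM after 24 h (-2.91), with intervals of 31.1 to 109 and 0.916 to 15.9 FPKM, and its transcript shares a stretch of 451 nt at 97.6% identity with Lefty2, which was at 4.59, 5.19 and 2.82 FPKM. Gsc (chr12:105709419-105711446), a homeobox gene of the organizer, stood at 36 FPKM in untreated cells, 25.3 FPKM after 1.5 h and 4.58 FPKM after 24 h (-2.73), with intervals of 11.3 to 60.8 and 0 to 9.88 FPKM. These 3 were the only lower genes with intervals apart, and in each the 24 h library was low while the 1.5 h value lay between the other two.

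The forkhead factor Foxa2, a gene of the node and definitive endoderm, stood at 13.2 FPKM in untreated cells, 4.06 FPKM after 1.5 h and 1.86 FPKM after 24 h (-2.32) and was closer to its 24 h than to its untreated level at 1.5 h. Lhx1, a LIM homeobox factor of the anterior streak, stood at 13.2, 8.76 and 3.53 FPKM (-1.65). Otx2, a homeobox factor of the epiblast and the anterior embryo, stood at 30.1, 28.4 and 8.21 FPKM (-1.76), with intervals of 11 to 49.3 and 1.36 to 15.1 FPKM. Each of these was lowest in the 24 h library, with overlapping intervals. The list also held Trh (thyrotropin-releasing hormone), lower at 10.6, 9.3 and 1.94 FPKM (-1.97), Dkk1, a Wnt inhibitor, at 2.32, 1.7 and 0.375 FPKM, and Foxj1, a factor of motile cilia, at 1.74, 0.887 and 0.292 FPKM. Chrd, Dkk1 and Foxj1 passed the filter through the untreated library. Hhex and Sox17, endoderm factors, lay within 2-fold at 17.2, 16.3 and 9.64 FPKM (-0.77) and at 3.63, 3.72 and 1.87 FPKM (-0.69), as did Foxa1 at 3.59, 2.17 and 1.79 FPKM. Below the filter, Hesx1, a homeobox gene of the anterior neural plate and endoderm, stood at 0.81, 0.453 and 0.149 FPKM.

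**Figure D2:**
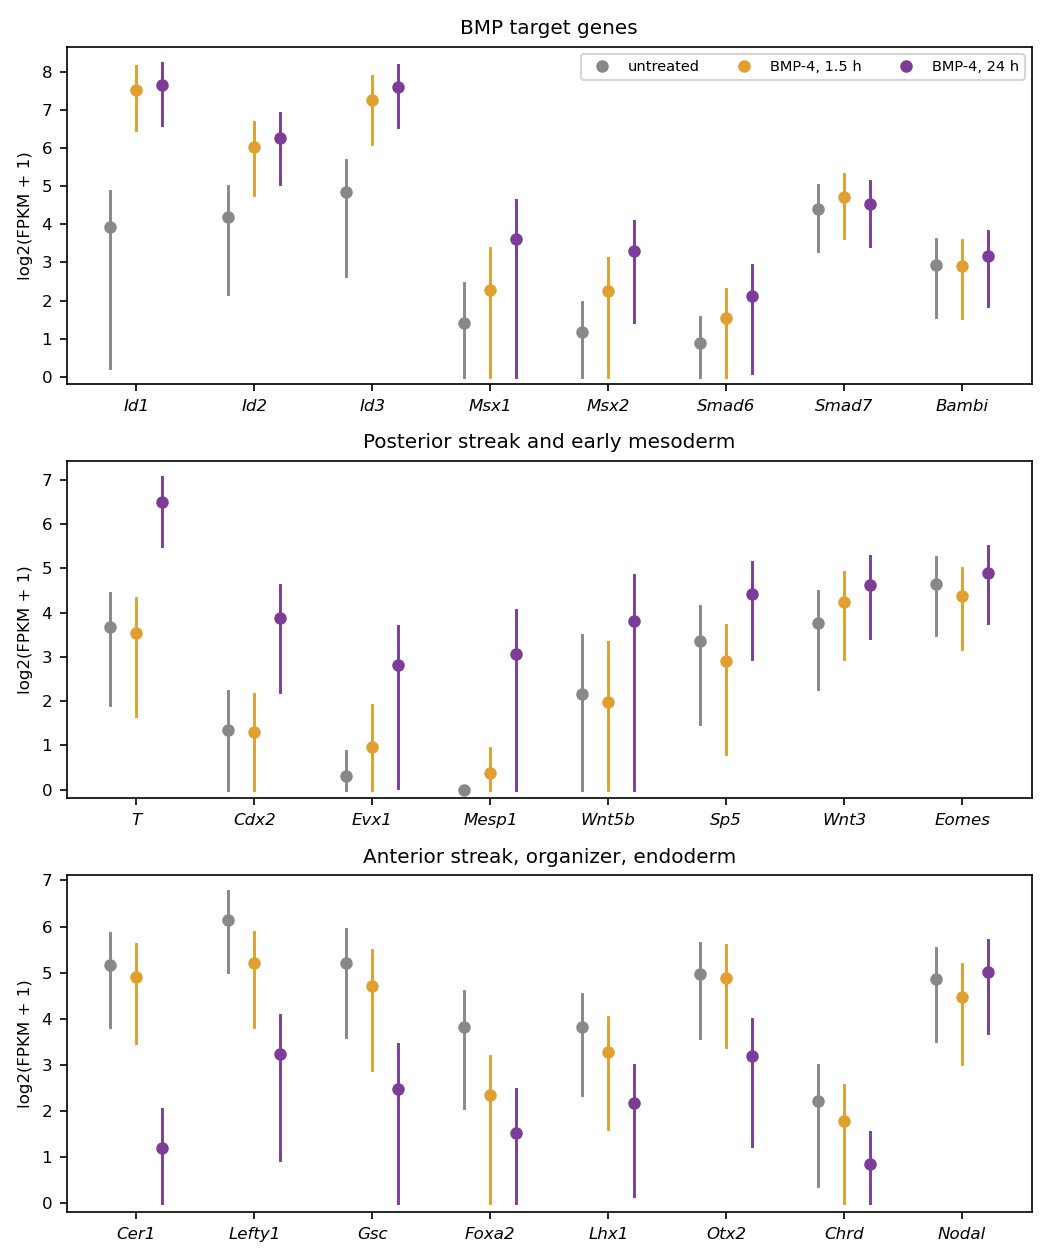
Levels of 24 genes in untreated EpiSCs (grey), after 1.5 h (orange) and after 24 h of BMP-4 (purple), as log2(FPKM + 1); points are the single library and bars its deposited 95% interval. Id1, Id2 and Id3 are high at 1.5 h and 24 h, T and Cdx2 only at 24 h, and Cer1, Lefty1 and Gsc are lowest at 24 h, while Smad7, Bambi, Eomes and Nodal stay within 2-fold.

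Genes of later mesoderm and of other fates were mostly below the filter. Of 24 lateral, cardiac and blood or endothelial genes 4 were compared and 1 was higher, Rspo3, which encodes a Wnt enhancer, at 1.72, 1.69 and 4.64 FPKM. The endothelial receptor gene Kdr stood at 0.376, 0.449 and 0.738 FPKM and the haemangioblast factor Etv2 at 0.672, 0.801 and 0.906 FPKM. Neither reached 1 FPKM in any EpiSC library. Of 18 paraxial mesoderm genes 5 were compared with 0 higher or lower, and the presomitic factors Tbx6 (0.0624 FPKM untreated, listed at 0 at 1.5 h, 0.183 FPKM at 24 h) and Msgn1 (listed at 0 in untreated cells and at 1.5 h, 0.386 FPKM at 24 h) were near 0. Of 17 genes of extraembryonic mesoderm and amnion 2 were compared, and Hand1, a factor of that mesoderm, stood at 0.111, 0.0498 and 0.204 FPKM. None of 38 Hox genes passed the filter. The Hox genes summed to 1.05 FPKM untreated, 1.92 FPKM after 1.5 h and 3.72 FPKM after 24 h, the number listed at 0 was 29, 26 and 16, and the highest was Hoxd1 at 0.17, 0.61 and 1.25 FPKM. The 24 h library was also the deepest, and the part of depth in these counts was not tested.

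Trophoblast and surface ectoderm lists were examined because BMP-4 can turn pluripotent cells toward these fates. Of 18 trophoblast genes 7 were compared, with Cdx2 higher and Krt7, a keratin of simple epithelia, lower at 5.25, 3.54 and 1 FPKM (median 0.25). Among its low members, Elf5 was listed at 0 in untreated cells and at 1.5 h and stood at 0.0361 FPKM at 24 h, and Hand1 and Gata3 were below 1 FPKM. Other members were expressed, among them Ascl2 at 2.28, 2.34 and 3.74 FPKM (0.53) and Tfap2c, given below. Of the 7 differences 4 were above 0 and 3 below, and the list summed to 53.5, 45.1 and 73.3 FPKM. Cdx2 and Eomes are also genes of the streak, given above. Of 18 surface ectoderm genes 8 were compared, with Msx2 higher and 0 lower (median 0.38). The ectoderm factor Tfap2a was listed at 0 at 1.5 h and stood at 0.0354 FPKM untreated and 0.182 FPKM at 24 h, its relative Tfap2c at 6.1, 6.11 and 12.7 FPKM (0.94), and the simple epithelial keratins Krt8 and Krt18 at 81, 74.6 and 99.2 FPKM and at 96, 88.4 and 133 FPKM. Of 16 primordial germ cell genes 9 were compared, with 1 higher and 0 lower (median 0.37). Among all genes compared 0.573% were higher and 0.395% lower. Without the filter the medians of the trophoblast, surface ectoderm and germ cell lists were 0.03, 0.23 and 0.16. The higher germ cell gene was Nanos3, an RNA-binding factor of migrating germ cells, at 0.721, 1.29 and 5.7 FPKM (1.96). Nanos3 passed the filter through the 24 h library alone, with overlapping intervals of 0 to 2.26 FPKM untreated and 0 to 13.5 FPKM at 24 h. Prdm1 (Blimp1), a repressor that starts the germ cell program, stood at 0.875, 0.903 and 2 FPKM, the membrane protein gene Ifitm1 at 17.7, 15 and 31.9 FPKM, and Dppa3 (Stella) at 0.463, 0.69 and 0.908 FPKM. Prdm14, a regulator of germ cell fate and naive pluripotency, was listed at 0 in all 3 EpiSC libraries. Tfap2c and Prdm1 thus had their highest value at 24 h but lay within 2-fold on the log2(FPKM + 1) scale.

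Markers of cells that a culture of this kind could also hold were examined beside these groups. The 14 visceral endoderm genes summed to 156 FPKM untreated, 166 FPKM after 1.5 h and 207 FPKM after 24 h, and 4 were compared, with Spink3 (a serine protease inhibitor) higher at 11.5, 17.4 and 31.8 FPKM and Apoa1 (an apolipoprotein) lower at 1.81, 2.48 and 0.355 FPKM. The defining marker Ttr was listed at 0 in untreated cells and stood at 0.0831 FPKM at 1.5 h and 1.16 FPKM at 24 h. The 10 fibroblast and feeder genes summed to 8.79, 8.33 and 8.74 FPKM in the same order, with 2 compared and 0 higher or lower. The sum of the visceral endoderm list was thus highest at 24 h among the EpiSC libraries, while that of the fibroblast list hardly differed. In ESCs the visceral endoderm list summed to 808 FPKM in LIF with serum and 600 FPKM in LIF with BMP-4, above every EpiSC library. The part of other cells in the results was not tested.

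Core pluripotency genes lay close to their untreated levels. Of 15 genes shared by both pluripotent states 14 were compared, with 1 lower and 0 higher (median -0.08). Pou5f1 differed by -0.07, and Nanog stood at 64.7, 64.8 and 81.4 FPKM (0.33). Sox2, which also marks neural fate, stood at 77.2, 90.2 and 55.5 FPKM (-0.47), and Utf1, a chromatin-associated factor, at 70.2, 66.9 and 41.5 FPKM (-0.75). Foxd3, a forkhead repressor of the epiblast, was the 1 lower gene at 6.86, 6.17 and 2.71 FPKM (-1.08). Naive pluripotency genes had 9 of 21 compared, 0 higher or lower and a median of -0.10. Among them Klf5 stood at 6.07, 5.1 and 9.52 FPKM (0.57) and Fgf4 at 6.42, 5.96 and 3.21 FPKM (-0.82).

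All 20 primed epiblast genes were compared, with 6 lower (against 0.395% of all genes compared), 0 higher and a median of -0.43. They were also listed with earlier results of these data known. Cer1, Lefty1, Foxa2 and Otx2, counted above with the anterior genes, were 4 of the 6. The others were Fgf5, lower by 2.19-fold with intervals of 73.7 to 192 FPKM untreated and 29 to 91.4 FPKM at 24 h, and Sox3, a factor of epiblast and neural cells, at 4.55, 3.62 and 1.6 FPKM (-1.09). The de novo DNA methyltransferase gene Dnmt3b stood at 403, 394 and 288 FPKM (-0.49) and the POU factor Pou3f1 at 24.4, 20.3 and 15.3 FPKM (-0.64). Both were lowest at 24 h and within 2-fold. The remaining primed genes thus split, since Nodal at 27.9, 21.3 and 31.6 FPKM and Fgf8 were slightly above their untreated levels. Of 20 neural and anterior ectoderm genes 9 were compared, with Sox3 lower and 0 higher (median -0.57). This median moved to -0.02 when the 11 low genes were added. Sox1 and Pax6, early neural factors, stayed at 0.245, 0.198 and 0.235 FPKM and at 0.279, 0.226 and 0.257 FPKM, while the zinc finger genes Zic2 and Zic5 stood at 41.5, 27.8 and 25.9 FPKM (-0.66) and at 14.8, 10.6 and 9.63 FPKM (-0.57).

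**Figure D3:**
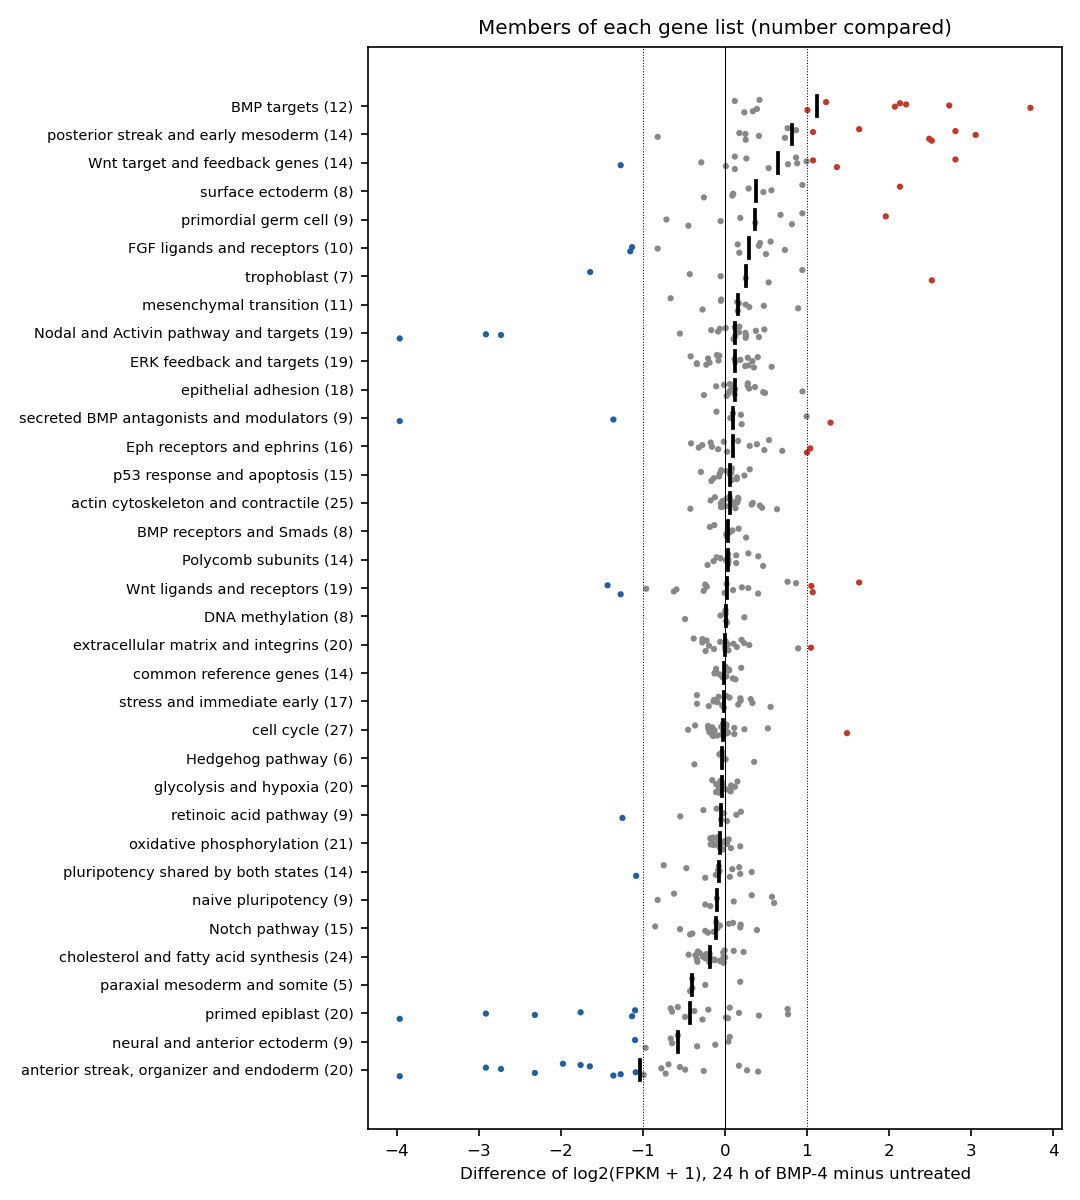
Difference of log2(FPKM + 1), 24 h of BMP-4 minus untreated, for each compared member of the lists with at least 5 compared genes, 1 point a gene, with the number compared in brackets and the median as a black bar. Red and blue points lie beyond the dotted 2-fold lines; BMP targets (median 1.12) stand at the top and anterior streak, organizer and endoderm genes (median -1.04) at the bottom, and most other medians lie near 0.

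Wnt ligands and their inhibitors were examined because Wnt and BMP act together in the posterior streak. Of 31 Wnt ligand and receptor genes 19 were compared, with 3 higher (against 0.573% of all genes compared) and 2 lower (against 0.395%). Of these 19 differences 10 were above 0 and 9 below (median 0.02). Wnt5b, a ligand of the posterior streak, was higher at 3.5, 2.97 and 13 FPKM (1.64), although its span overlaps that of Fbxl14. The receptor gene Fzd10 was higher at 14.6, 16.1 and 31.8 FPKM (1.07), and Rspo3 completed the 3. The lower genes both encode inhibitors: Sfrp1, which binds Wnt proteins, stood at 21.2, 20.2 and 7.23 FPKM (-1.43), and Dkk1 blocks the co-receptor Lrp6. The receptor genes Fzd7 and Fzd8 had their lowest value at 24 h, within 2-fold on the log2(FPKM + 1) scale. Fzd7 stood at 12.3, 13.4 and 7.85 FPKM and Fzd8 at 2.19, 1.66 and 0.639 FPKM. Of 19 Wnt target and feedback genes 14 were compared, 3 were higher (T, Axin2 and Sp5) and 1 was lower (Dkk1), against the same shares. Of the 14 differences 12 were above 0 (median 0.65). Without the filter 4 of 19 were higher (median 0.53), against 0.294% of all genes. T and Sp5 were already counted with the posterior streak and Dkk1 with the anterior genes. Axin2, a scaffold that returns beta-catenin to degradation, stood at 7.31, 6.99 and 20.4 FPKM (1.37), and Sp5, a zinc finger target of beta-catenin, at 9.25, 6.45 and 20.6 FPKM (1.07). The feedback genes Nkd1, Lef1 and Notum lay within 2-fold on the log2(FPKM + 1) scale. They stood at 2.26, 2.83 and 5.01 FPKM, at 5.34, 6.15 and 9.82 FPKM and at 0.363, 0.371 and 1.72 FPKM. Notum passed the filter through the 24 h library alone. For Axin2 and Sp5 the 1.5 h value was at or below the untreated one and only the 24 h library was high. Wls and Porcn, which are needed to secrete Wnt proteins and were picked for mention after their values were seen, were also higher, at 3.37, 3.66 and 8.05 FPKM and at 0.397, 0.965 and 1.8 FPKM.

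The Nodal and Activin list, which describes the pathway driven by the Activin A in the medium, had 19 of 21 genes compared, 3 lower (Cer1, Lefty1 and Gsc), 0 higher and a median of 0.12. The ligand gene Nodal and its co-receptor gene Tdgf1 (68.1, 69.5 and 77 FPKM) and the partner of Smad2 Foxh1 (20.6, 22.5 and 22.6 FPKM) lay within 2-fold. The list thus held the 3 lower genes with intervals apart beside pathway components within 2-fold. Of 17 FGF ligand and receptor genes 10 were compared, with Fgf5 and Fgf15 lower, the latter at 4.88, 4.47 and 1.64 FPKM, and 0 higher (median 0.30). All 19 feedback and target genes of the kinase ERK were compared with 0 higher or lower (median 0.12), among them the phosphatase genes Dusp4 at 55.3, 45.7 and 82.5 FPKM and Dusp9 at 18.6, 19.5 and 23.8 FPKM. In the retinoic acid list 9 of 16 were compared, with Cyp26a1, which degrades retinoic acid, lower at 10.5, 7.38 and 3.82 FPKM (-1.25) and 0 higher. Notch (15 of 21 compared, median -0.11) and Hedgehog (6 of 11, median -0.03) had 0 called genes. Among Eph receptors and ephrins 16 of 19 were compared, and the ligand genes Efnb1 (3.17, 3.94 and 7.59 FPKM) and Efna1 (3.02, 4.35 and 7.05 FPKM) were higher, both close to the 2-fold line.

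Epithelial and mesenchymal genes were examined because cells leave the streak by losing epithelial contacts. Of 24 epithelial adhesion genes 18 were compared and of 19 mesenchymal transition genes 11, with 0 higher or lower in either (medians 0.12 and 0.16). E-cadherin (Cdh1) stood at 135, 128 and 137 FPKM and vimentin (Vim) at 461, 419.7 and 447 FPKM. The transition factor Snai1 had its highest value at 24 h, at 0.477, 0.488 and 1.3 FPKM, below the filter, and Zeb1 its lowest, at 3.12, 3.17 and 1.6 FPKM. Fibronectin (Fn1) stood at 3.71, 3.72 and 7.75 FPKM (0.89) and the desmosomal desmoplakin gene Dsp at 17.4, 17.7 and 34.5 FPKM (0.95). A matrix gene and an epithelial gene thus both lay just under 2-fold higher on the log2(FPKM + 1) scale. In the matrix and integrin list (20 of 26 compared) Has2, a hyaluronan synthase, was higher at 3.82, 7.71 and 8.97 FPKM, with a span shared with its antisense transcript Has2os. The actin list (25 of 26 compared) had 0 called genes.

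Growth and housekeeping lists lay close to the median of all genes. Of 28 cell cycle genes 27 were compared (median -0.02), and only cyclin D2 (Ccnd2) was called, higher at 1.89, 2.51 and 7.12 FPKM (1.49). The lists for p53 response and apoptosis (median 0.06), stress (-0.01), glycolysis and hypoxia (-0.04), oxidative phosphorylation (-0.06), DNA methylation (0.01) and Polycomb subunits (0.04) had 0 called genes. Cholesterol and fatty acid synthesis genes had 0 of 24 called and 21 of 24 differences below 0, with a median of -0.18. The 14 compared reference genes had a median of -0.01, with Gapdh at 1647, 1680.5 and 1667 FPKM. Of the 103 called genes 41 were in a list (23 higher and 18 lower), and the others were in none. Among all 10641 compared genes 441 were in a list. Because the lists were drawn up with earlier results of these data known, these counts are a description only.

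Further genes with large differences fell outside the patterning groups. Alox15 (chr11:70157649-70165533), which encodes an enzyme that oxidizes arachidonic and linoleic acid, stood at 13.9 FPKM in untreated cells, 16.9 FPKM after 1.5 h and 66.3 FPKM after 24 h (2.18), with intervals of 4.06 to 23.7 and 32.4 to 100.2 FPKM that were apart. Nrp2 (neuropilin 2, a receptor for semaphorins and VEGF-C) was higher at 2.13, 2.57 and 10.3 FPKM, Coch (cochlin, an extracellular protein) at 3.47, 9.42 and 14 FPKM and Phlda2, an imprinted growth restrainer of the placenta, at 21.5, 29.9 and 57.8 FPKM. Isg15, an interferon-induced ubiquitin-like protein, stood at 14.8, 32 and 45.3 FPKM (1.56). For Coch and Isg15 the 1.5 h value already lay between the other two, whereas Nrp2 was high only at 24 h. On the lower side, Slc27a2, a fatty acid transporter, stood at 64.9, 54.5 and 27 FPKM, the ectonucleotidase Enpp3 at 51.2, 46.1 and 19.7 FPKM, and Eras, a Ras-like GTPase of ESCs, at 15.4, 13.5 and 6.21 FPKM. Pga5 (pepsinogen) stood at 7.55, 6.82 and 1.2 FPKM, Dact1, a regulator of Wnt and TGF-beta signalling, at 5.18, 4.91 and 0.963 FPKM, Klhl4 at 5.82, 5.54 and 1.34 FPKM, the protease Adamts9 at 7.85, 6.27 and 2.44 FPKM and the receptor regulator Lrig3 at 15.4, 12.4 and 6.35 FPKM. All of these lower genes had 1.5 h values nearer to the untreated than to the 24 h level, and all had overlapping intervals. Zfp964, a zinc finger gene, was higher at 1.41, 2.03 and 5.46 FPKM.

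Some calls rest on genes that share sequence or a locus with others, which leaves their levels uncertain. Btg3 stood at 7.74, 0.00156 and 0.00136 FPKM, while Gm7334, which holds 756 nt of identical sequence, stood at 45.7, 51.6 and 47.1 FPKM, and the sum of both was 53.5, 51.6 and 47.1 FPKM. Pisd-ps1, with intervals apart, stood at 0.0467, 0.035 and 7.09 FPKM and its neighbour Pisd-ps3 at 7.39, 5.95 and 0.291 FPKM, so their sum was 7.44, 5.99 and 7.39 FPKM. For both pairs the sum lay within 2-fold, so the call is of the single copy and not of the pair. Ubald2 (5.2, 4.02 and 1.74 FPKM) shares 492 nt with Gm7367, and the sum was 31.5, 32.1 and 30.3 FPKM. Amd2, named for its shared sequence alone, was higher at 45.4, 60.8 and 98.7 FPKM and shares 3202 nt of identical sequence with Amd1. Amd1 stood at 118, 105 and 67.1 FPKM, and the sum of Amd2 and Amd1 was 163, 166 and 166 FPKM. Of the 103 called genes 20 shared their deposited span with another gene. Of the 97 called genes with a transcript in GENCODE M21, 7 had a match of at least 150 nt at 97% identity or more to another gene, Lefty1 and Otx2 (169 nt, with Gm49154) among them.

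The genes that were higher after 24 h were mostly not genes of ESCs. Of the 61, 34 (55.7%) stood below 1 FPKM in both ESC libraries and 13 (21.3%) at 5 FPKM or more in both. Of the 42 lower genes these numbers were 17 (40.5%) and 8, and of all 10641 compared genes 780 (7.33%) and 6860 (64.5%). The median level of the higher genes went from 1.95 FPKM untreated to 7.32 FPKM at 24 h, and that of the lower genes from 7.12 to 1.62 FPKM. The median of all compared genes was 10.9 FPKM untreated, so both sets held genes of lower level, and the part of level in the ESC shares was not tested.

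**Figure D4:**
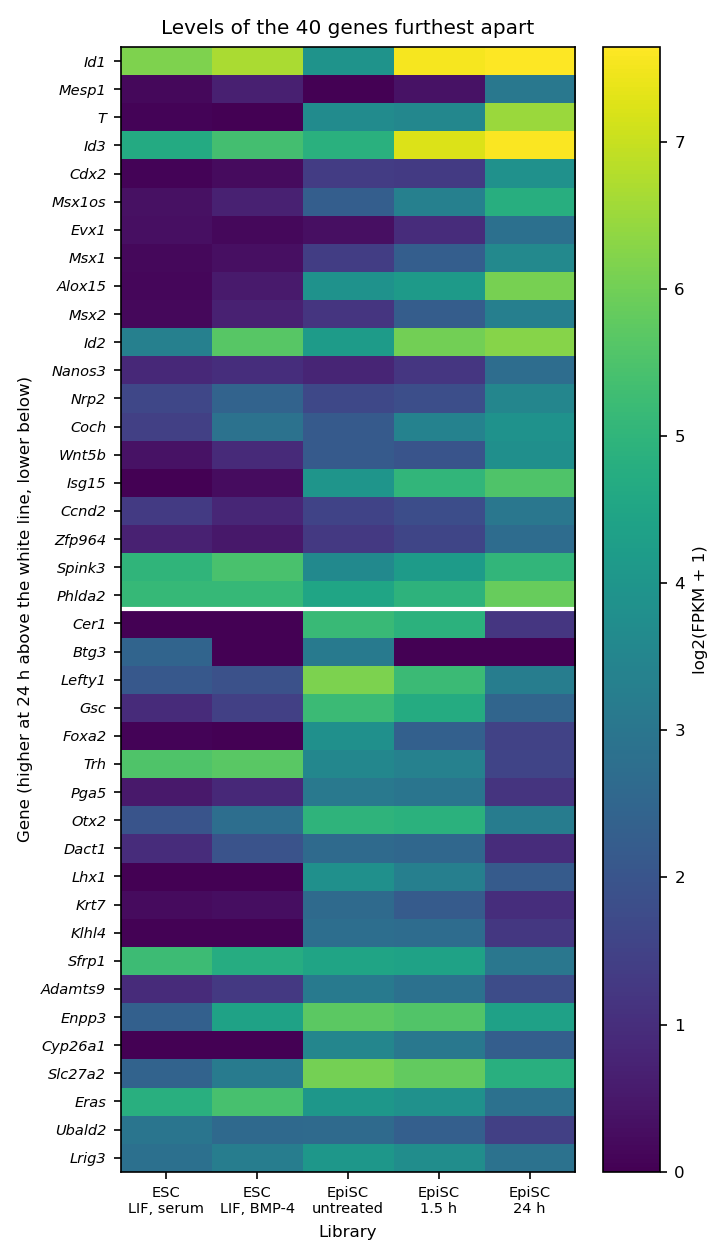
Level of the 20 highest and 20 lowest named genes by difference, as log2(FPKM + 1) in colour, in the 2 ESC and 3 EpiSC libraries; the white line parts genes higher at 24 h from genes lower at 24 h. Id1 and Id3 are also bright in ESCs, and T, Cdx2, Cer1 and Foxa2 are dark in both ESC libraries. Btg3, which shares identical sequence with Gm7334, is dark after both times of BMP-4 and in ESCs in LIF with BMP-4.

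At the 2-fold line the members were close to those left out. Just inside lay Efna1 and Porcn (both 1.00) among higher genes and Foxq1 (-1.02) among lower ones. Just outside lay Fst, Ptgs1 (0.813, 0.727 and 2.63 FPKM) and, on the lower side, the chemokine receptor gene Cxcr4 (4.92, 4.92 and 1.98 FPKM) and Chst1 (13.2, 10.8 and 6.12 FPKM). These genes differ from called ones by less than the width of their intervals, and Foxq1, Ptgs1 and Chst1 are named for their place at the line alone.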

How the data were processed

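Poly(A) RNA of whole cultures was sequenced in directional libraries, per the labels' protocols. The deposited table holds FPKM per gene with lower and upper confidence bounds and a status for each library, per the file headers, as computed by the authors. The mm9 build, TopHat, Cufflinks 2.0.13, Picard and SAMtools are named without order, per the submitters' processing notes. Annotation, strand setting of the counting and scaling between libraries could not be learned from the labels or headers.

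Genes averaging 1 FPKM or more in the 2 libraries compared were kept, a pseudocount of 1 FPKM was added, and differences of log2(FPKM + 1) were taken (Python 3.11.15, pandas 2.3.3, NumPy 2.4.6, figures with matplotlib 3.10.9). A status other than OK left out 5 genes with that mean, and 46 small RNA genes were left out. FPKM hides depth, so reads were estimated from genes below 0.5 FPKM with a single transcript over 1500 nt: in the 24 h library 197 of 600 such values (32.8%) were whole multiples of 1 read within 0.05, so the totals are approximate and no count test was run. An exact 0 can be a failed estimate, since Hmgcs1, an enzyme of cholesterol synthesis, is listed at 0 throughout. No plain ratio to 0 is therefore given. The call and the differences of Mesp1, listed at 0 in untreated cells, rest on the pseudocount. File positions count starts from 0 (7775 of 17642 matched spans equal RefSeq's under that reading, 486 under the other) and are printed from 1.

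Members and the 41 gene lists (677 genes, 441 compared) were chosen with earlier results of these data known. Besides list members, named genes are the 20 highest and 20 lowest differences of at least 2-fold with 5 FPKM in 1 of the 2 libraries, predicted genes left out, and calls with intervals apart. Transcripts were those of GENCODE M21. Alternatives were other pseudocounts, filters, scalings, fold limits and the 1.5 h library as control. The counting was tested on a copy of the untreated library with known folds set in some genes at 20 FPKM or more. No noise was added, so this checks the code and not how reliable the calls are.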

Additional observations from a re-analysis of the deposited data

How the results depend on the processing

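No paired analysis was possible because there was 1 library a group. Against 61 higher and 42 lower genes, a pseudocount of 0.1 FPKM gave 134 and 92, a pseudocount of 5 FPKM 21 and 14, a mean of at least 5 FPKM 31 and 18, a call at 1.5-fold 239 and 180, and a call at 3-fold 19 and 13. No filter (67 and 48), the median ratio set to 1 (62 and 42), equal upper quartiles (71 and 41), predicted genes left out (58 and 40) and the 1.5 h library as control (55 and 32) stayed within 1.5 times. Of the 40 named differences 0 changed sign under these settings. They were chosen as the largest, and pseudocounts, filters and leaving out predicted genes cannot change a sign. The scalings moved them by at most 0.04. Only the 1.5 h control could have changed a sign, and there 39 were compared, without Btg3. Some list medians changed sign: 6 against the 1.5 h library, 5 with equal upper quartiles, 3 at a mean of at least 5 FPKM and 2 with no filter, of 37 to 40 medians each. The naive list's median (-0.10) was 0.08 at a mean of at least 5 FPKM and 0.20 against 1.5 h, and that of the lateral mesoderm list (0.37, 4 genes) was -0.25 against 1.5 h. With a pseudocount of 5 FPKM 11 of the 40 named differences lay under 2-fold, and against the 1.5 h library 12 of 39, Id1 among them at 0.11. The list median of BMP targets (1.12) was 0.46 with a pseudocount of 5 FPKM and 0.28 against 1.5 h, and that of anterior genes (-1.04) was -0.48 and -0.83. The neural list's median (-0.57) was -0.02 with no filter and -0.15 against 1.5 h. No setting can replace replicate cultures, and at 1 to 5 FPKM the deposited intervals reached a median of 112% above the untreated value.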

Other observations

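Interferon-responsive genes and imprinted genes were listed after Isg15 and Phlda2 had been seen, so their counts are a description of chosen lists. Of 36 interferon-responsive genes 23 were compared, 2 were higher after 24 h (Isg15 and Iigp1) and 0 lower, and 18 of 23 differences were above 0, with a median of 0.11. Iigp1, an interferon-induced GTPase, stood at 0.619, 0.8 and 2.66 FPKM in untreated cells, after 1.5 h and after 24 h. Within 2-fold, the values were 25.9, 32 and 49 FPKM for the GTPase Gbp2, 19.1, 24.9 and 33.7 FPKM for its relative Irgm1 and 14.7, 16.4 and 24.6 FPKM for the transcription factor Irf1. The restriction factor Bst2 stood at 107, 109.6 and 106 FPKM and the peptide transporter Tap1 at 7.32, 6.59 and 7.51 FPKM. Bst2 and Tap1 thus stood near their untreated levels.

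Of 24 imprinted genes 14 were compared, with Phlda2 higher and 0 lower (median 0.06). The growth factor gene Igf2 stood at 4.2, 3.64 and 9.02 FPKM (0.95) and the zinc finger gene Peg3 at 15.1, 16.4 and 29.4 FPKM (0.92). Cdkn1c, an inhibitor of the cell cycle whose gene lies near Phlda2 with Slc22a18 between them, stood at 263, 291 and 379 FPKM (0.52). These 3 had their highest value at 24 h and lay within 2-fold. The noncoding transcripts Meg3 and Rian stood at 22.8, 24 and 21.8 FPKM and at 69.9, 67.7 and 71 FPKM, and Snrpn at 227, 214 and 174 FPKM (-0.38).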
